A study of Mus musculus with 6 samples.

Results

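Messenger RNA of p53, of its relative p73 and of 7 p53 target genes was followed in whole brain of wild-type mice (WT) and of mice transgenic for SOD1-G85R, a form of the antioxidant enzyme superoxide dismutase that causes inherited amyotrophic lateral sclerosis. The genes were chosen by name as Trp53, Trp73, Cdkn1a, Sesn1, Sesn2, Gadd45a, Gadd45g, Ddb2 and Fdxr, and all 9 were among the 770 genes measured. Each genotype had 3 samples, all labelled day 10 and on a C57BL/6 background, with no treatment named in the labels. The labels give neither the start from which days were counted nor the promoter, line or sex of the animals, and no value of Sod1 was used here to check the genotypes. They also do not say that replicates were separate animals, and p-values therefore measure only the spread between these samples. Expression was measured by NanoString hybridisation, which counts colour-coded probes bound to RNA without amplification, and values are given as normalized counts, the deposited scaled values. One probe reports each gene, so levels were compared between samples and not between genes.

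p53 is a transcription factor that is held at a low level by the ubiquitin ligase Mdm2 and accumulates as a protein after DNA damage and other stress. It then induces genes that stop the cell cycle, aid DNA repair, adjust metabolism or lead to cell death. p73 binds similar DNA sites and is known in the developing mouse brain from Cajal-Retzius neurons and from ependymal cells. RNA levels report neither the amount nor the activity of these proteins.

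The sequences upstream of the transcription starts of Cdkn1a, Trp73, Sesn1 and Fdxr are shown because these were the 4 genes whose genotype groups did not overlap, as described below. The sequences are from RefSeq on GRCm38.p6, matched by symbol for 8 of the 9 genes (not Ddb2), and they read 5′ to 3′ on the strand of the gene and end at the base before the start. The Fdxr sequence is shorter, at 118 bases, and ends before the first base of the gene, since bases inside another of its transcripts were left out. Capitals mark exact matches to the 10-base p53 half-site consensus, searched on both strands.
Cdkn1a, first start, chr17:29090729-29090978, plus strand: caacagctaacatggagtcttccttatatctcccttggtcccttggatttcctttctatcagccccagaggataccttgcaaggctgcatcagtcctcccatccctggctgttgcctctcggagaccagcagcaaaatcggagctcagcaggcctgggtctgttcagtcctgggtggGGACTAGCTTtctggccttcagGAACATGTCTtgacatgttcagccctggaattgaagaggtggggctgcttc
Trp73, first start, chr4:154139876-154140125, minus strand: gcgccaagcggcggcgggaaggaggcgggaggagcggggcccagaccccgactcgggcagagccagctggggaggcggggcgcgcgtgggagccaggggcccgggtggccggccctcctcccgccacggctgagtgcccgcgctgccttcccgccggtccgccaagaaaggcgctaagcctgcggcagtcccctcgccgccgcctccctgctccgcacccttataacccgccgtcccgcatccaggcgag
Sesn1, internal start, chr10:41887189-41887438, plus strand: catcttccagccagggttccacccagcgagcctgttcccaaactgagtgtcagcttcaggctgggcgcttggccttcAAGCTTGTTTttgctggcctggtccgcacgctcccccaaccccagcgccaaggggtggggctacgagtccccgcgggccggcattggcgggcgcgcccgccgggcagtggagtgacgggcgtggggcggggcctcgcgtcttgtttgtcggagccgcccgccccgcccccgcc
Fdxr, first start, chr11:115277102-115277219, minus strand: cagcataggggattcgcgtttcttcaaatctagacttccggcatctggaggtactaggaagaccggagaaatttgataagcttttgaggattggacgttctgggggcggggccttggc

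The Cdkn1a stretch held 2 exact half-sites, whose first bases lay at -73 and -51 from the start. The half-site at -51, GAACATGTCT, is followed with no gap by TGACATGTTC, which differs from the consensus at 1 of its 10 positions, so the run has the form of a full p53 response element. The 2 exact half-sites, with a gap of 12 bases and 0 mismatches, also make a full site as defined next. A full site, taken as a pair of half-sites up to 13 bases apart with at most 1 mismatch in 20 positions, was found in 0.898% of the 32851 RefSeq promoter windows of 250 upstream bases. Among the stretches of the 8 genes it was found upstream of the first Cdkn1a start alone. Single half-sites stood at -173 from the internal Sesn1 start, at -40 from the Gadd45a start and at -75 from the Trp53 start, against 7.13% of all windows with a half-site. The Trp53 position is counted from a start that lies downstream of the gene's first base, where its stretch of 239 bases ends. No half-site was found in the windows of either Trp73 start, of the internal Cdkn1a start, of the first Sesn1 start, of Sesn2, of Gadd45g or of Fdxr. For Sesn1 and for Cdkn1a the start shown is the one with a match. The window of the internal Cdkn1a start is chr17:29093519-29093768, downstream of the first start, and the positions above are not counted from it. The windows end 250 bases or less upstream, and a match is a description of the letters only. The panel's single probe per gene does not separate RNA from the 2 starts that RefSeq lists for each of Trp73, Cdkn1a and Sesn1.

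One sample, SOD1-G85R replicate 2, was unlike the rest. Its log2 values correlated with those of the other 5 at 0.824 to 0.834 across genes, which are no independent replicates, while the 5 correlated with one another at 0.956 to 0.984. The summed signal of 8 interferon response genes was 17963 in SOD1-G85R replicate 2, whereas SOD1-G85R replicates 1 and 3 had 493 and 594 and WT samples 486 to 566. The summed signal of 10 lymphocyte markers was 92.1 to 138 in WT and 156 to 1089 in SOD1-G85R, with Cd3e and Cd8a at the lowest deposited value in every WT sample. In WT replicates 1, 2 and 3, 7, 9 and 3 of the 10 markers were at the lowest value, so these sums hold values that are no measured signal. In the SOD1-G85R replicates 0, 0 and 1 were. All measured markers of neurons, oligodendrocytes, astrocytes and microglia were above the lowest value in every sample, as for brain tissue, and the summed signal of 7 oligodendrocyte genes was 51409 to 68110 among WT samples and 26740 to 35905 among SOD1-G85R samples. Kdm5d, a gene of the Y chromosome, averaged 247 ± 208 in WT and 86.7 ± 135 in SOD1-G85R samples (SD, n = 3 each). Its signal thus varied widely within both genotypes, and the balance of the sexes between them was not tested. The samples' values rested on implied total counts of 468719 to 1022648, the lowest being those of SOD1-G85R replicates 3 and 1 (468719 and 551739). In WT replicates 1, 2 and 3, 54, 59 and 29 genes of the panel shared the lowest deposited value. In SOD1-G85R replicates 1, 2 and 3, 10, 13 and 19 genes did. The part of this in the higher values of low genes such as Fdxr, Fas and Brca1 was not tested. Over the panel, limma called 0 of 712 genes tested (0%) at an adjusted p of 0.05, and 116 genes (16.3%) had an unadjusted p under 0.05.

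All 9 genes passed the filter on low values, Fdxr with values above 20 in 1 WT sample and in all 3 SOD1-G85R samples, and none passed the test across all genes in the deposited scaling with all 6 samples. Trp73, Fdxr and Cdkn1a were higher in every SOD1-G85R sample than in every WT sample, Sesn1 was lower in every SOD1-G85R sample, and the other 5 genes overlapped between the genotypes. Non-overlap in either direction was found for 4 of the 9 genes, against 27.0% of all genes tested. It was found in the higher direction for 3 of the 9, against 17.0%, and in the lower direction for 1 of the 9, against 9.97%. An unadjusted limma p under 0.05 was found for 2 of the 9, Trp73 and Fdxr, both higher, against 11.7% of all genes in the higher and 4.63% in the lower direction. Leaving out a sample cannot make separate groups overlap, and without SOD1-G85R replicate 2 no further gene of the 9 became separate, while the shares of all genes were 19.7% higher and 16.2% lower. In that fit none of the 9 passed the adjusted threshold, against 1.40% of all genes. These counts rest on 9 genes and are given beside the panel's shares as a description. The median log2 fold change (SOD1-G85R minus WT, on the log2(value + 1) scale) was 0.18 over the 9 genes and 0.15 over all genes tested. Without SOD1-G85R replicate 2 these medians were -0.01 and 0.01.

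**Figure D1:**
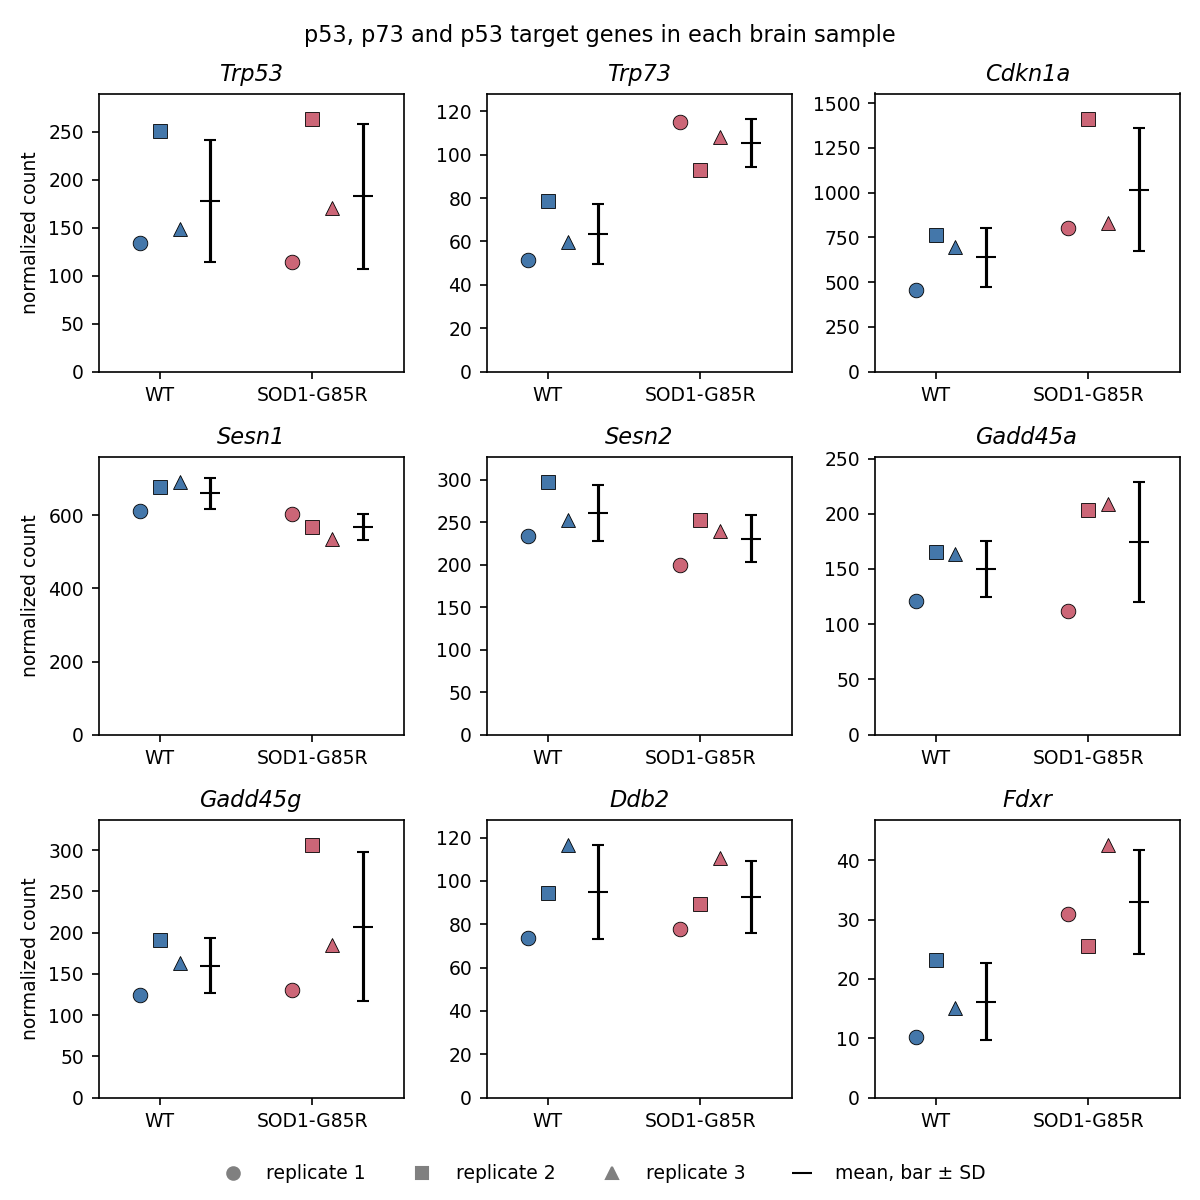
Normalized counts of the 9 genes in each sample (vertical axes start at 0), with WT in blue, SOD1-G85R in red, a symbol for each replicate number, and the group mean with a bar of ± SD. Trp73, Cdkn1a and Fdxr do not overlap between the genotypes and are higher in SOD1-G85R, Sesn1 does not overlap and is lower, and Trp53 spans nearly the same range in both.

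Trp53, the gene of p53 itself, measured 134, 250 and 149 normalized counts in WT replicates 1, 2 and 3. In the SOD1-G85R replicates, in the same order, it measured 114, 264 and 170. The range within either genotype was wider than the distance between the genotype means, which were 178 ± 63.3 and 183 ± 75.5 (SD, n = 3 each). The log2 fold change was 0.01 (95% interval -0.94 to 0.96; limma, adjusted p = 0.989), an interval that leaves room for nearly a doubling or halving. Without SOD1-G85R replicate 2 it was -0.29 (95% interval -1.03 to 0.45), so the sign of the difference turned with 1 sample. The direction also turned to -0.20 with median-centred samples and to -0.29 under quantile normalization.

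Trp73, which encodes p73, measured 51.4, 78.4 and 59.9 normalized counts in WT replicates 1, 2 and 3. It measured 115, 93.2 and 108 in the SOD1-G85R replicates. The lowest SOD1-G85R sample, replicate 2, lay above the highest WT sample, replicate 2. The mean was 63.3 ± 13.8 for WT and 105 ± 11.2 for SOD1-G85R (SD, n = 3 per genotype), which is a log2 fold change of 0.74 (SE 0.23) or 1.67-fold. The difference did not pass limma's test over all genes (unadjusted p = 0.0160, adjusted p = 0.224), and without SOD1-G85R replicate 2 it was 0.83 (adjusted p = 0.121). The sample with the strong interferon signal thus had the lowest Trp73 value of its genotype. In a bulk sample, more cells that express a gene and more RNA per cell cannot be told apart.

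Each Trp73 value rested on 65 to 117 counted probes, and the 95% Poisson intervals for counting error alone were 62.0 to 97.9 in WT replicate 2 and 77.0 to 112 in SOD1-G85R replicate 2. The intervals of these 2 samples, the nearest of the opposite groups, overlapped. Trp73 passed the threshold under 2 of the 20 alternative settings. They were limma's sample weights (log2 fold change 0.83, adjusted p = 0.0442), under which 7.30% of all genes passed, and centring on sample medians without SOD1-G85R replicate 2 (0.89, adjusted p = 0.0464), under which 11.2% of all genes passed. The second was chosen after seeing the data, and the same centring with all 6 samples gave 0.54 (adjusted p = 0.492). Quantile normalization of all 6 samples gave 0.19 (adjusted p = 0.876), and it gave 0.68 when SOD1-G85R replicate 2 was left out before quantile normalization.

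Cdkn1a encodes p21, the inhibitor of cyclin-dependent kinases through which p53 stops the cell cycle. It measured 454, 763 and 697 normalized counts in WT replicates 1, 2 and 3. In SOD1-G85R the 3 values were 804, 1412 and 832. The genotypes did not overlap, but WT replicate 2 at 763 and SOD1-G85R replicate 1 at 804 were close, with 95% Poisson intervals of 710 to 820 and 748 to 864. The means were 638 ± 163 and 1016 ± 343 (SD, n = 3 each), so that the log2 fold change was 0.66 (SE 0.32), and the difference did not pass limma's test (unadjusted p = 0.0878, adjusted p = 0.390).

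The size of the Cdkn1a difference rested on 2 samples. Without SOD1-G85R replicate 2, the highest, the log2 fold change was 0.39 (95% interval -0.24 to 1.03; limma, adjusted p = 0.543). Without WT replicate 1, the lowest, it was 0.43 (adjusted p = 0.685). The part of the interferon and lymphocyte signal of SOD1-G85R replicate 2 in its Cdkn1a value was not tested. The direction was positive under all 20 alternative settings, with values from 0.39 to 0.80 and no adjusted p under 0.188.

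Among the genes tested, those whose values followed Cdkn1a most closely over the 6 samples were Gna15, Mcm2 and Grap, with root mean square log2 differences of 0.119, 0.132 and 0.158 against a median of 0.522 over all genes. For Trp53 they included Rela and Ikbkb, at 0.0741 and 0.123 against a median of 0.526. Rela, a subunit of NF-kB, had values of 126, 211 and 133 among WT samples, and of 111, 257 and 163 among SOD1-G85R samples. Like Trp53 it was highest in replicate 2 of both genotypes. These are descriptions over 6 samples that share sample-wide shifts.

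Fdxr encodes ferredoxin reductase, a mitochondrial electron donor that p53 is known to induce. It was close to the lowest deposited values, at 10.3, 23.1 and 15.2 normalized counts in WT replicates 1, 2 and 3. In the SOD1-G85R samples, in order, the values were 30.9, 25.5 and 42.6. The genotypes did not overlap, yet WT replicate 2 and SOD1-G85R replicate 2 rested on 23 and 32 counted probes, with 95% Poisson intervals of 14.7 to 34.7 and 17.4 to 36.0.

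Fdxr passed the filter on low values through its SOD1-G85R samples, the group in which it was higher, so its place in the counts above is no separate support. The Fdxr means were 16.2 ± 6.49 and 33.0 ± 8.76 (SD, n = 3 each), with a log2 fold change of 1.02 (SE 0.35; limma, unadjusted p = 0.0243, adjusted p = 0.243). Without SOD1-G85R replicate 2 it was 1.19 (adjusted p = 0.0936). It passed under the same 2 settings as Trp73, with an adjusted p of 0.0379 under sample weights and 0.0208 with samples centred on their medians without SOD1-G85R replicate 2, while centring with all 6 samples gave 0.81 (adjusted p = 0.378). Setting values under 20 to 20 gave 0.60, and quantile normalization gave 0.14 (adjusted p = 0.880), or 0.38 without SOD1-G85R replicate 2.

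The sestrins, stress-induced proteins that restrain growth signalling through mTORC1, did not share that direction. Sesn1 measured 612, 677 and 692 normalized counts in WT replicates 1, 2 and 3. The SOD1-G85R samples, in order, had 603, 567 and 534. The groups did not overlap, although the lowest WT sample at 612 and the highest SOD1-G85R sample at 603 had overlapping 95% Poisson intervals. The means were 660 ± 42.3 and 568 ± 34.5 (SD, n = 3 each), and the log2 fold change was -0.22 (SE 0.17; limma, adjusted p = 0.580), the same without SOD1-G85R replicate 2.

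Sesn2 measured 233, 298 and 252 in the WT samples and 199, 253 and 240 in the SOD1-G85R samples. The ranges overlapped, and the log2 fold change was -0.18 (95% interval -0.67 to 0.31; limma, adjusted p = 0.686). Both sestrins had a negative log2 fold change under all 20 alternative settings, none of them past the threshold. With samples centred on their medians the log2 fold changes were -0.42 for Sesn1 and -0.38 for Sesn2, and with such centring but without SOD1-G85R replicate 2 they were -0.15 and -0.18.

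The Gadd45 genes encode small stress-induced proteins that bind p21 and PCNA and act on stress kinases. Gadd45a measured 121, 165 and 164 normalized counts in the WT samples and 112, 203 and 209 in the SOD1-G85R samples. SOD1-G85R replicate 1 was the lowest of all 6 samples and the other SOD1-G85R samples were the highest. The log2 fold change was 0.18 (95% interval -0.57 to 0.93; limma, adjusted p = 0.807). It was 0.04 without SOD1-G85R replicate 2, 0.03 without WT replicate 1, 0.02 without SOD1-G85R replicate 3 and 0.47 without SOD1-G85R replicate 1. It turned to -0.03 with median-centred samples and to -0.20 under quantile normalization.

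Gadd45g measured 125, 191 and 164 in the WT samples and 131, 307 and 185 in the SOD1-G85R samples. Only SOD1-G85R replicate 2 lay outside the WT range. The log2 fold change was 0.31 (95% interval -0.56 to 1.17; limma, adjusted p = 0.692) with all samples and -0.02 without SOD1-G85R replicate 2. The mean difference of Gadd45g was therefore made by the sample with the interferon signal, whose part in it was not tested.

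Ddb2, a damage-recognition subunit of nucleotide excision repair and a p53 target in human cells, measured 73.6, 94.5 and 117 in the WT samples and 77.8, 89.2 and 111 in the SOD1-G85R samples. The SOD1-G85R samples lay inside the WT range. The log2 fold change was -0.03 (95% interval -0.64 to 0.59; limma, adjusted p = 0.959).

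**Figure D2:**
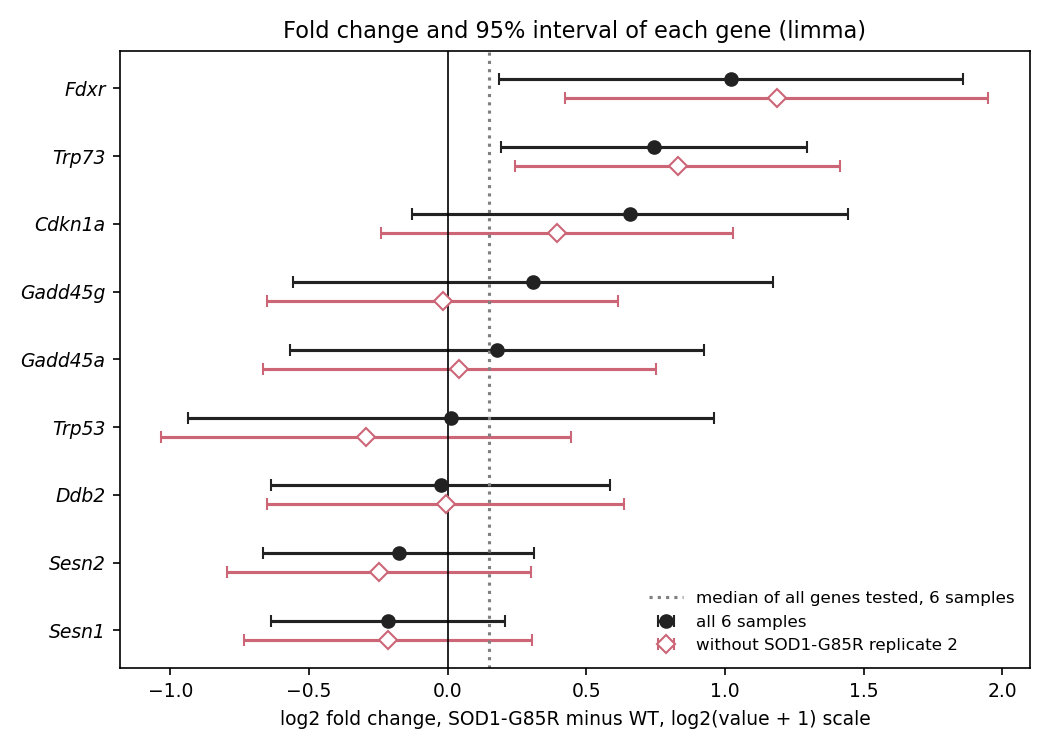
Log2 fold change (horizontal axis, SOD1-G85R minus WT) of each gene with limma's 95% interval, from all 6 samples in black and without SOD1-G85R replicate 2 in red. The dotted line is the median of all genes tested at 0.15 in the fit of all 6 samples, which is 0.01 without that sample. The intervals of Fdxr and Trp73 lie above 0 before adjustment for the number of genes in both fits, and the estimates of Cdkn1a, Gadd45a, Gadd45g, Sesn2 and Trp53 move lower in the red fit.

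Samples of one genotype also differed in these genes. WT replicate 1 was the lowest WT sample for 9 of the 9 genes, whereas it was the lowest for 52.9% of all genes tested. WT replicate 2 was the highest WT sample for 7 of the 9, against 42.4% of all genes. Among SOD1-G85R samples replicate 1 was lowest for 6 of the 9, against 61.0% of all genes, and replicate 2 was highest for 4 of the 9, against 57.4%. Against the WT mean, the median over the 9 genes was -0.33, 0.28 and 0.06 on the log2 scale in WT replicates 1, 2 and 3. In the SOD1-G85R replicates it was -0.26, 0.57 and 0.25. The median over all genes tested moved in the same directions by less except in WT replicate 3, at -0.11, 0.03 and 0.09 for the WT replicates and -0.09, 0.32 and 0.10 for the SOD1-G85R replicates. The spread among WT samples was as wide as many of the genotype differences, with coefficients of variation in WT from 6.41% for Sesn1 to 40.0% for Fdxr. For Trp53 the WT coefficient of variation was 35.6%, and the counting error of each WT sample was 6.34% to 7.67%.

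**Figure D3:**
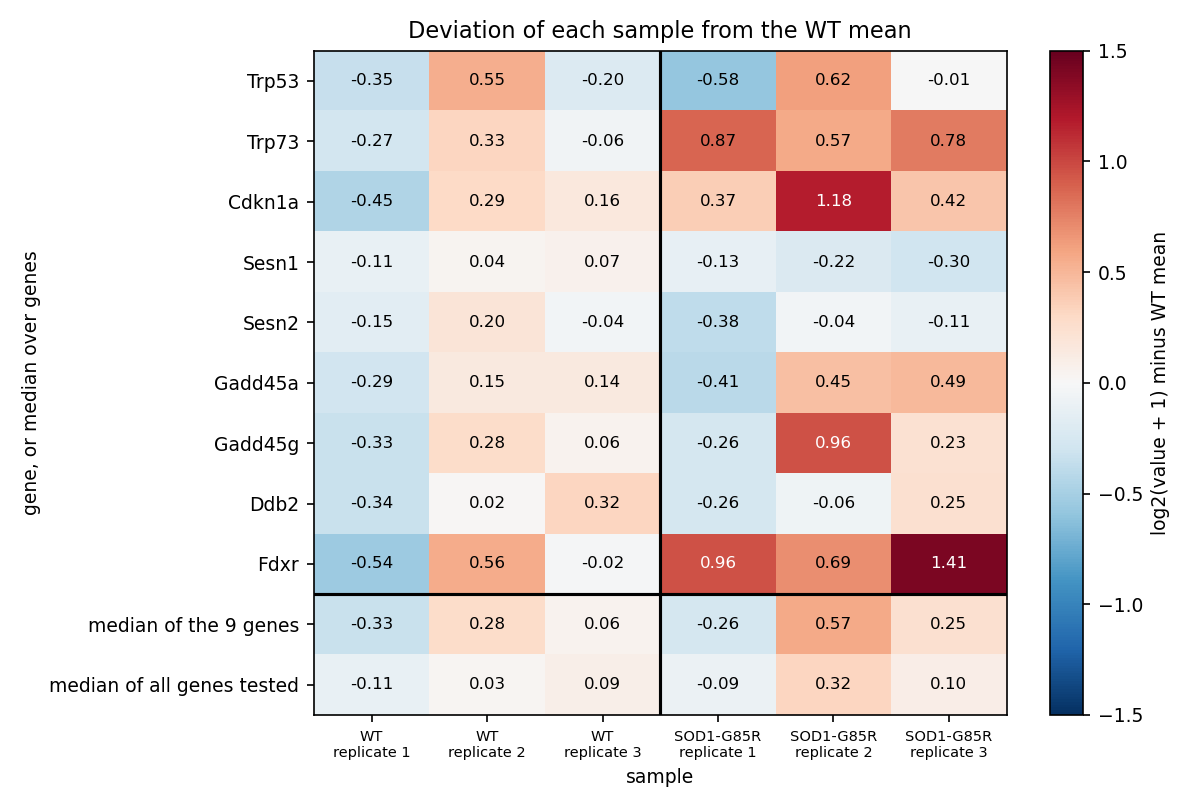
Deviation of each sample (columns) from the WT mean on the log2(value + 1) scale for the 9 genes (rows), with the median of the 9 genes and of all genes tested in the bottom rows. Trp73 and Fdxr are positive in all SOD1-G85R samples, Cdkn1a and Gadd45g are highest in SOD1-G85R replicate 2 at 1.18 and 0.96, and WT replicate 1 is negative for every gene.

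Since 0 of the 712 genes tested passed the test, none of the listed genes known to act on p53 could be among those passing, and this is no result about them. Of 20 listed regulators and cofactors 14 were measured, all were tested, and 0 passed the test or had an unadjusted p under 0.05, against 16.3% of all genes. Their median log2 fold change was -0.08, against 0.15 over all genes tested, and without SOD1-G85R replicate 2 it was -0.06 against 0.01. Mdm2, which is at once the ubiquitin ligase of p53 and a p53 target, averaged 665 ± 61.7 for WT and 627 ± 147 for SOD1-G85R (SD, n = 3 per genotype), with a log2 fold change of -0.11 (SE 0.24), or -0.27 without SOD1-G85R replicate 2, and was named after its values were seen. The checkpoint kinase genes Chek1 and Chek2, whose products phosphorylate p53, had the smallest p of the list. Chek1 averaged 34.5 ± 7.01 and 46.8 ± 6.45, with overlap through SOD1-G85R replicate 2, at 39.8 against 41.1 in WT replicate 1. Its log2 fold change was 0.44, or 0.55 without SOD1-G85R replicate 2. Chek2 had 49.0, 28.2 and 43.2 among WT and 40.5, 61.3 and 61.1 among SOD1-G85R samples, which overlapped as well. For Chek2 the log2 fold change was 0.44, or 0.34 without SOD1-G85R replicate 2. Hdac1, a deacetylase gene, had a log2 fold change of 0.34 and Atr, a damage-sensing kinase gene, one of -0.25, and both overlapped as well. Without SOD1-G85R replicate 2 these were 0.15 and -0.14.

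The same holds for the listed genes of cell death that p53 is known to induce. Of 17 listed genes 8 were measured, all were tested, 0 passed the test over all genes and 4 were higher without overlap, against 17.0% of all genes. The list's median log2 fold change was 0.29 against 0.15 over all genes tested, or 0.05 against -0.08 after quantile normalization. Tnfrsf10b, a receptor for the death ligand TRAIL, measured 26.1, 38.2 and 23.2 in the WT samples and 52.2, 63.7 and 82.4 in the SOD1-G85R samples, a log2 fold change of 1.16 (SE 0.28; limma, adjusted p = 0.190). The death receptor gene Fas averaged 19.8 ± 2.64 and 51.2 ± 20.4 (SD, n = 3 each). With 19.8, 17.1 and 22.4 in the WT samples, Fas passed the filter on low values through its SOD1-G85R samples. Its place in the list's count is therefore no separate support. Casp1, the inflammatory caspase gene, measured 53.8, 32.2 and 79.1 in the WT samples and 93.8, 541 and 83.8 in the SOD1-G85R samples, the high value being that of the sample with the interferon signal, and its log2 fold change was 1.63 with that sample and 0.77 without it. Casp6, an executioner caspase gene, averaged 150 ± 11.8 and 183 ± 16.6, and its log2 fold change was 0.29, or 0.22 without that sample. Bax and Bbc3, genes of the mitochondrial death pathway, overlapped between the genotypes, with log2 fold changes of 0.16 and 0.29, or 0.03 and 0.32 without SOD1-G85R replicate 2 (both named after their values were seen).

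A further list holds replication and mitosis genes that are known to fall when p53 and p21 act through the DREAM repressor complex. Whether these proteins acted on them here was not tested. All 24 measured genes of the list had a positive log2 fold change in the fit of all 6 samples as deposited. Without SOD1-G85R replicate 2, Lig1 and Dnmt1 were at -0.10 and -0.28 (both named after their values were seen). Of 54 listed genes 24 were measured and tested, 13 were higher without overlap, against 17.0% of all genes, and 0 were lower without overlap, against 9.97%. None passed limma's threshold over all genes, as none did in the whole panel, and 13 had an unadjusted p under 0.05 in the higher direction, against 11.7% of all genes. The median log2 fold change was 0.65 as deposited, 0.53 without SOD1-G85R replicate 2, 0.44 with median-centred samples and 0.16 under quantile normalization. Over all genes tested the medians were 0.15, 0.01, -0.06 and -0.08 in the same order. Top2a, the topoisomerase gene of dividing cells, measured 154, 161 and 212 in the WT samples and 594, 608 and 463 in the SOD1-G85R samples, for a log2 fold change of 1.66 (SE 0.22; limma, adjusted p = 0.0810). Brca1, Lmnb1 and Cks1b had log2 fold changes of 1.23, 1.19 and 1.23. With 22.94, 19.11 and 19.98 in the WT samples, Brca1 passed the filter on low values through its SOD1-G85R samples. Kif2c, with 16.61, 28.16 and 21.57 in the WT samples, also passed the filter only with its SOD1-G85R samples. It was named after its values were seen. The places of Brca1 and Kif2c in the counts of this list are therefore no separate support. Earlier results of these data already showed the higher values of Top2a and related genes, and they are given here only beside Cdkn1a, whose protein is known to act against their expression. Of 5 listed markers of dividing progenitor cells Top2a alone was measured, and the part of dividing cells in the values of Cdkn1a and Trp73 was not tested.

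**Figure D4:**
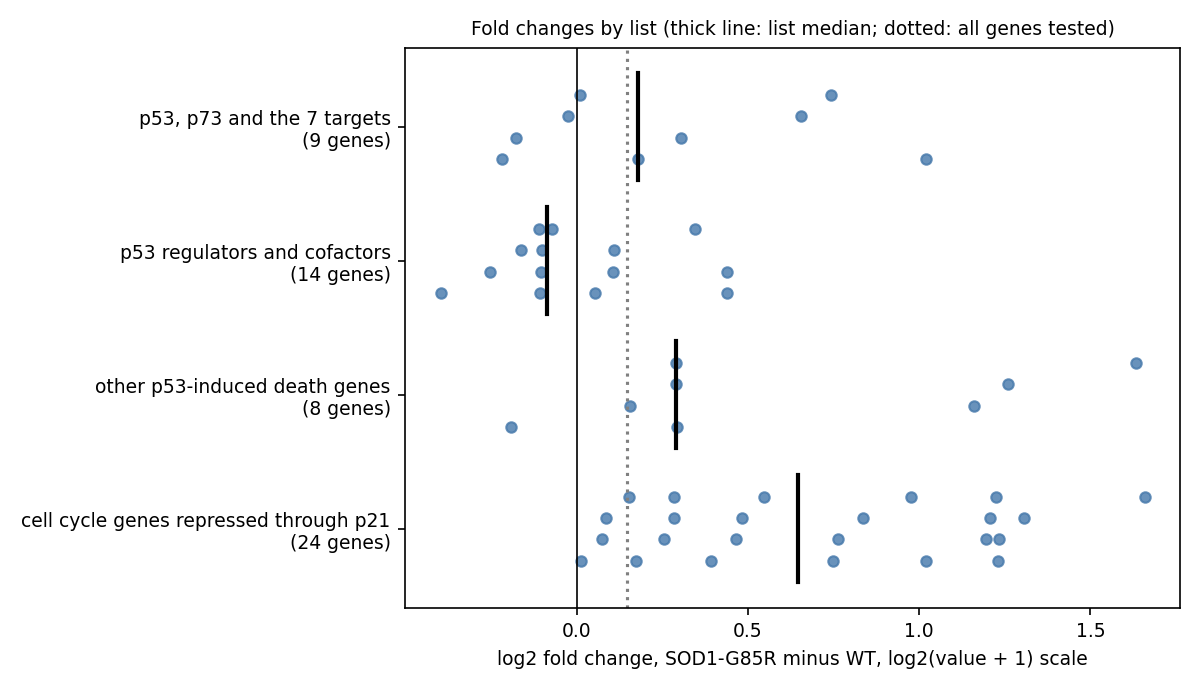
Log2 fold change (horizontal axis, SOD1-G85R minus WT) of each measured gene in 4 lists (rows, 1 point per gene, spread vertically for legibility), with the list median as a thick line and the median of all genes tested as a dotted line. The medians are 0.18 for the 9 genes, -0.08 for p53 regulators, 0.29 for other death genes and 0.65 for the cell cycle genes, none of whose points lies below 0.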

How the data were processed

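Whole-brain RNA of 3 WT and 3 SOD1-G85R samples was measured on a NanoString panel, and the samples were grouped by the labels. The deposited signal is 1 value per gene and sample, scaled by the authors, and the software, scaling genes and any background step are not known here. In every sample all values above the lowest were whole multiples of 1 step within 0.1 count (100%), with steps of 0.791 to 1.42, and dividing by the step gave the implied counts, used only for depth and 95% Poisson intervals, which cover counting error only. The lowest value, 7.85 to 13.4, was shared by 10 to 59 genes per sample, more in every WT than in every SOD1-G85R sample. It was read as a floor, so tests for raw counts were not used. The test took the 712 genes with a value above 20 in 3 or more samples and left out 58. It used log2(value + 1) and limma's lmFit and eBayes (version 3.58.1, R 4.3.3), two-sided and without covariates, with p-values adjusted by Benjamini-Hochberg over these genes and a threshold of 0.05. This scale understates the change of low genes. The fit was tested on simulated data. The genes, lists and rule for named genes (all 9 genes, up to 4 of smallest p per list and the 3 most similar patterns for Trp53 and Cdkn1a) were chosen with earlier results of these data known. Some genes that the rule allows are not reported here. Alternatives were leaving out each sample, other scalings, filters, pseudocounts and variance models, a common floor, a Uty covariate and the replicate number as a block. Promoter sequences and coordinates are from RefSeq (GRCm38.p6), which gave 11 starts for 8 of the 9 genes. Bases that lie inside another transcript of the gene at its first start were left out. Figures were drawn with matplotlib 3.10.9.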

Additional observations from a re-analysis of the deposited data

How the results depend on the processing

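Of the 20 alternative settings, 2 were chosen after seeing the data, both of them a scaling combined with leaving out SOD1-G85R replicate 2. No gene passed the threshold with all 6 samples under any setting except limma's sample weights, which called 52 genes, 2 of the 9 p53-related genes among them, in a weight estimate that stopped before convergence. Leaving out 1 sample at a time gave 0 to 10 called genes, the 10 without SOD1-G85R replicate 2, and 0 of the 9. Without that sample, centring on medians gave 80 called genes, 2 of the 9 among them, and quantile normalization gave 9 called genes and 0 of the 9. Why these settings call more was not tested. The median over the 9 genes was -0.01 to 0.47 when 1 sample was left out, -0.03 with median-centred samples and -0.20 under quantile normalization. Over all genes tested it was 0.01 to 0.26, -0.06 and -0.08 in the same order. The sign of the log2 fold change turned for 4 genes. For Trp53 it was -0.29 to 0.31 when 1 sample was left out, -0.20 and -0.29 with centring on medians and quantile normalization, and -0.23 and -0.34 with these and without SOD1-G85R replicate 2. For Ddb2 it was -0.20 to 0.13 when 1 sample was left out and 0.057 with centring on medians without that sample. For Gadd45a it was -0.029 with centring and -0.20 with quantile normalization, and for Gadd45g -0.018 to 0.59 when 1 sample was left out and -0.023 with quantile normalization without that sample. The cause was not tested. The replicate numbers were not taken to pair samples, since deviations of same-numbered samples correlated at 0.231, 0.0881 and 0.0999 and WT replicates 2 and 3 correlated better with another number. With the replicate number as a block, 0 genes and 0 of the 9 were called, the median over the 9 genes was 0.18, and unadjusted p under 0.05 rose from 116 to 162 genes, Cdkn1a among them (adjusted p = 0.188, limma). With the signal of Uty, a gene of the Y chromosome, as a covariate, 0 genes were called. The median was then 0.24 over the 9 genes and 0.18 over all genes tested. Log2 fold changes in that fit were 0.24 for Trp53, 0.47 for Gadd45g, 0.70 for Trp73 and 0.92 for Fdxr. A filter at 50 left out Fdxr. Depth limited that gene most, with 13 to 32 counted probes per sample.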
